A study of Drosophila melanogaster with 11 samples.

Results

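The 200 most abundant long non-coding RNAs (lncRNAs) were followed in the heads of male CantonS flies, a wild-type laboratory strain of Drosophila melanogaster, before and after 10 days at different temperatures. They were chosen from the 1090 linear rows of the expression table whose gene name carries the prefix lncRNA, after roX1, roX2 and CR46141 had been left out, by ranking the mean over all 11 libraries. The whole table held 13804 linear genes. Because the rule used the level, the height of a level is a description here and was not tested, and as a lncRNA high in a single group can enter through that group, differences between groups were not wholly independent of the choice. Every one of the 200 lncRNAs passed the filter on low values, a mean of at least 10.

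Flies of all 4 groups were wild type, were reared at 25 °C and were mated, and males were then separated under CO2 and allowed a day of recovery. The pre-treatment group (3 libraries) was frozen at that point, and the other groups were frozen after 10 days at 18 °C (3 libraries), at 25 °C (2 libraries) or at 29 °C (3 libraries). The 10-day groups were therefore older than the pre-treatment flies by the length of the exposure, so age and 10 days of keeping cannot be told apart in any comparison with pre-treatment, whereas 18, 25 and 29 °C differ in temperature at one age in days. Each library came from whole heads of pooled males, and ribosomal RNA was depleted before sequencing, so that transcripts with and without a poly(A) tail could be read.

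A lncRNA is a transcript with no long open reading frame. Some act in the nucleus as scaffolds for proteins, some are precursors that are cut into microRNAs or small nucleolar RNAs, some overlap a coding gene on the opposite strand, and for most fly lncRNAs, which are known only by a CR number, no role has been assigned. The best known in the fly is Hsromega, a heat-inducible nuclear RNA that gathers RNA-binding proteins into omega speckles.

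Values are normalized reads, that is, reads divided by 1 scaling factor per library. A difference was called when limma gave an adjusted p under 0.05 over all 12676 linear genes tested and an absolute log2 fold change above 0.5. Folds are ratios of group means, log2 fold changes are given with their standard error (SE), and means with their SD over libraries. In whole heads, fewer cells that make an RNA and less of that RNA per cell cannot be told apart.

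Depth was uneven and moved with the levels of these lncRNAs. Libraries held from 32.1 M reads (pre-treatment replicate 3) to 123 M (18 °C replicate 2), with group means of 40.85 ± 10.5 M (n = 3) before treatment, 87.0 ± 36.2 M after 18 °C (n = 3), 59.6 ± 4.59 M after 25 °C (n = 2) and 65.95 ± 11.5 M after 29 °C (n = 3). Within groups, 159 of the 200 lncRNAs were higher in the deeper libraries, with a median of 0.34 on the log2 scale per doubling of depth, against 51.2% of all genes tested and a median of 0.01. The 644 less abundant lncRNAs that were tested behaved alike, at 77.6% and a median of 0.41. In each group the shallowest library held the lowest value for most members, 116 in pre-treatment replicate 3, 152 in 18 °C replicate 3, 161 in 25 °C replicate 2 and 132 in 29 °C replicate 2. Counts of called lncRNAs are therefore given below with depth as a covariate as well. The share of all genes called in that fit is not given here, so those counts have no background beside them. Depth differs between the groups, so this covariate also takes up part of any difference between them, and the part of depth in each result was not tested.

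Photoreceptor, neuron, glia, fat body and muscle markers were all present, among them the eye genes that a head sample holds. The lists for other tissues were covered only in part, as 4 of 9 accessory gland, 11 of 15 testis and 2 of 6 midgut markers had a row. Those accessory gland markers summed to between 587 and 1115 normalized reads, the testis markers to between 1195 and 1688, and the midgut markers to under 28. Most of the testis sum was fzo, at a mean of 1049. Glial markers summed to 95810 to 99294 at 18 °C and to 61178 to 63477 at 29 °C, and the 13 photoreceptor markers to 2273360 to 2408230 and 3141770 to 3316980. Before treatment the glial sum was 90753 to 100140 and the photoreceptor sum 2338690 to 2433350, and at 25 °C they were 73348 to 76755 and 2443850 to 2625380, so both moved with 25 and with 29 °C against pre-treatment too. Muscle markers summed to 348611 to 432663 before treatment, 188202 to 206696 at 18 °C, 233998 to 275762 at 25 °C and 276675 to 282181 at 29 °C, and so moved with every comparison with pre-treatment and with 29 against 18 °C. Fat body markers summed to 767335 to 849161 before treatment, 891696 to 1059670 at 18 °C, 813658 to 894324 at 25 °C and 705059 to 883240 at 29 °C. The 18 °C range thus lay above those before treatment and at 29 °C. Most of the fat body sum was apolpp, at a mean of 787458 over all libraries, so the sum says little of the other genes in that list. The part of these sums in the values of single lncRNAs was not tested.

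A few RNAs made up most of the signal. The mean over libraries ran from 446026 normalized reads for noe to 195 for CR42646, with a median of 376. noe alone held 36.7% of the signal of the 200, noe and Hsromega together 64.2%, the first 4 together 84.7% and the first 20 together 93.2%. The 200 held 96.7% of the signal of the 1090 lncRNA rows. Among all 13804 linear genes, noe ranked 4, Hsromega 7, CR42862 29 and mimi 39. Only 34 of the 200 had a mean of 1000 or more.

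**Figure D1:**
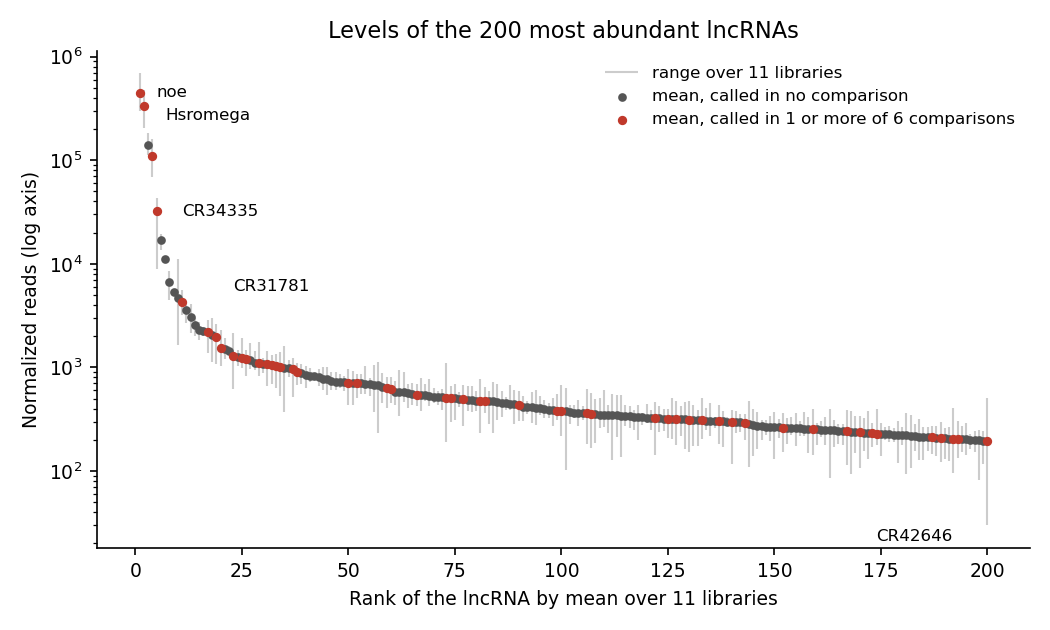
Mean normalized reads (log axis) of each of the 200 lncRNAs against its rank. Vertical lines span the lowest to the highest of the 11 libraries, and red points are the 52 lncRNAs called in 1 or more of 6 comparisons. The levels fall steeply over the first 10 ranks and flatten from there to 195 at rank 200, where CR42646 has the widest span relative to its mean.

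Length changes that order. Per kilobase of exon, noe (1077 nt) remained first at 414138 normalized reads per kilobase, but CR34335 (361 nt) came next at 89033, followed by mimi (1563 nt) at 69624 and CR42862 (5485 nt) at 25613, and Hsromega, the longest of the 200 at 21710 nt, was 1 place behind at 15415. The median exonic length of the 199 lncRNAs that matched the Ensembl annotation was 956 nt, and 112 of them had 1 block of exon. In dm6 coordinates, noe lies at 3L:17400272-17401348 on the minus strand, inside blot on the same strand and sharing no exon with it. Hsromega occupies 3R:21296127-21317836 on the plus strand, 464 bp from the nearest coding gene, aus.

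The annotation placed 50 members on 3R, 47 on 3L, 45 on 2L, 34 on 2R, 19 on X and 4 on chromosome 4. A coding gene overlapped 139 of them, on the opposite strand alone for 99, on the same strand alone for 36 and on both for 4, and 60 overlapped none. Exons were shared with a coding gene on the same strand in 15 cases and on the opposite strand in 13. The libraries kept strand, but the strand setting of the authors' counting is not given in the sources used here, so reads of these overlapping genes may be mixed.

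The limit at rank 200 is close. CR45333 (mean 198), CR44109 (196) and CR42646 (195) were the last inside, and CR44900 (194), CR45793 (194) and CR45878 (191) the first outside. CR42646 entered through its level at 29 °C, where it ranked 84 of the lncRNAs, against 532 before treatment, 411 at 18 °C and 207 at 25 °C, so its difference between groups is in part what let it in. Of the 200 lncRNAs, 172 were among the top 200 by the mean of each of the 4 groups.

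As a sum, the 200 lncRNAs took a smaller share of linear signal in the warmer groups. The share was 2.26 ± 0.0458% (SD, n = 3) before treatment, then 2.31 ± 0.125% in the 18 °C group (n = 3), 1.90 ± 0.0407% in the 25 °C group (n = 2) and 1.66 ± 0.0379% in the 29 °C group (n = 3). This lay in the first 4 RNAs, whose sum was 1192270 before treatment, 1186920 after 18 °C, 944600 after 25 °C and 767707 after 29 °C. The other 196 lncRNAs together took 0.306%, 0.312%, 0.295% and 0.334%, with SDs between 0.0136 and 0.0325 percentage points. Every 29 °C library lay above both 25 °C libraries, and all other pairs of groups overlapped.

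The comparison of 29 with 18 °C asked what temperature changes over the same 10 days. Hsromega and mimi, both among the first 4 by level, fell at 29 °C, while rises were more numerous and were found among less abundant lncRNAs. Of the 200, 17 were called higher and 6 lower, 8.5% and 3.0% of the members against 5.36% and 5.29% of all genes tested. In either direction 11.5% were called, near the background of 10.6%. Without overlap between the 29 and the 18 °C libraries were 70 members (35%), against 42.9% of all genes. The median log2 fold change was 0.08 for the members and 0.00 for all genes. With depth as a covariate 41 were called, 35 higher and 6 lower, and 22 of the 23 calls were kept, all but CR43126. Among the 172 lncRNAs in the top 200 of every group, a restriction chosen after seeing the data, 14 were higher and 5 lower.

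Hsromega, the heat-inducible RNA of the omega speckles, had 455501, 476121 and 389340 normalized reads in the 18 °C libraries and 206151, 232085 and 235774 in the 29 °C libraries. Every 18 °C library lay above every other library of the 4 groups, and every 29 °C library below all others. The mean was 1.96-fold lower at 29 than at 18 °C, a log2 fold change of -0.97 (SE 0.10, adjusted p = 0.000166). At 25 °C it had 318675 and 290249, and before treatment 358661, 368513 and 350143. The fall against pre-treatment was called at 29 °C (log2 -0.68, SE 0.10, adjusted p = 0.00112) and not at 25 °C (-0.24, adjusted p = 0.251).

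mimi (3R, 148 bp from CG13603) followed the same order from 18 to 29 °C. The 18 °C libraries had 159646, 161419 and 154944 normalized reads, the 25 °C libraries 111167 and 101995, and the 29 °C libraries 75512, 68272 and 71962. No library of one temperature overlapped those of another, and the pre-treatment libraries, at 97435, 109778 and 84912, lay below the 18 °C and above the 29 °C libraries. The mean was 2.21-fold lower at 29 than at 18 °C (log2 -1.14, SE 0.10, adjusted p = 5.71e-05) and 1.63-fold higher at 18 °C than before treatment (log2 0.71, SE 0.10, adjusted p = 0.00102). Hsromega and mimi were the only 2 of the 200 whose libraries were ordered 18 above 25 above 29 °C throughout, 1% against 4.58% of all genes.

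The other RNAs of the top 10 did not pass this test. noe had 408732, 396066 and 490981 normalized reads at 18 °C and 337462, 372341 and 301244 at 29 °C, a log2 difference of -0.36 (SE 0.15, adjusted p = 0.132) between groups that did not overlap. CR42862, which shares exon with CG33229 on the same strand, had 163796, 184892 and 119328 at 18 °C and 144889, 121806 and 135623 at 29 °C, and the groups overlapped. CR44922 had group means between 6309 and 6821, with a log2 difference of 0.05 between 29 and 18 °C.

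Less abundant RNAs were lower as well at 29 °C. CR44298, inside magu on the opposite strand, had 311, 334 and 405 normalized reads at 18 °C and 147, 189 and 142 at 29 °C, with no overlap (2.19-fold lower, log2 -1.13, SE 0.22, adjusted p = 0.0055). Its pre-treatment values of 146, 171 and 138 and its 25 °C values of 96.1 and 173 were like those at 29 °C, so 18 °C stood apart from the other 3 groups. Every library of those 3 groups lay below 195, the lowest mean among the members, so CR44298 entered the list through its level at 18 °C. Its differences between groups, here and below, are therefore not independent of that choice. CR32368 (log2 -1.07, adjusted p = 0.0238), CR46003 (-0.67, adjusted p = 0.022) and CR43126 (-0.52, adjusted p = 0.00583) passed as well. The first 2 of these lost the call without 1 library, CR32368 at an adjusted p of 0.0921 without 29 °C replicate 2 and between 0.0538 and 0.0781 without 29 °C replicate 3 or any one 18 °C replicate, and CR46003 between 0.0531 and 0.0832 without 18 °C replicate 1 or 2 or any one 29 °C replicate. CR43126 fell under the fold threshold without 18 °C replicate 2 (-0.46) or 29 °C replicate 3 (-0.48).

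CR42646 (2R:5363253-5367357, plus strand, 149 bp from CG10417) showed the widest change of the 200. CR42646 entered the list through its level at 29 °C, so its differences between groups, here and below, are not independent of that choice. It had 37.7, 52.4 and 29.9 normalized reads before treatment, 56.2, 65.9 and 91.9 at 18 °C, 166 and 231 at 25 °C and 475, 502 and 437 at 29 °C. All 4 groups were separate, in the order pre-treatment, 18, 25 and 29 °C. The mean at 29 °C was 6.61-fold that at 18 °C (log2 2.73, SE 0.24, adjusted p = 7.6e-05) and 11.8-fold that before treatment (log2 3.56, SE 0.24, adjusted p = 9.96e-06). Its coding neighbour CG10417 had a log2 difference of 0.09 (SE 0.06, adjusted p = 0.323) between 29 and 18 °C.

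**Figure D2:**
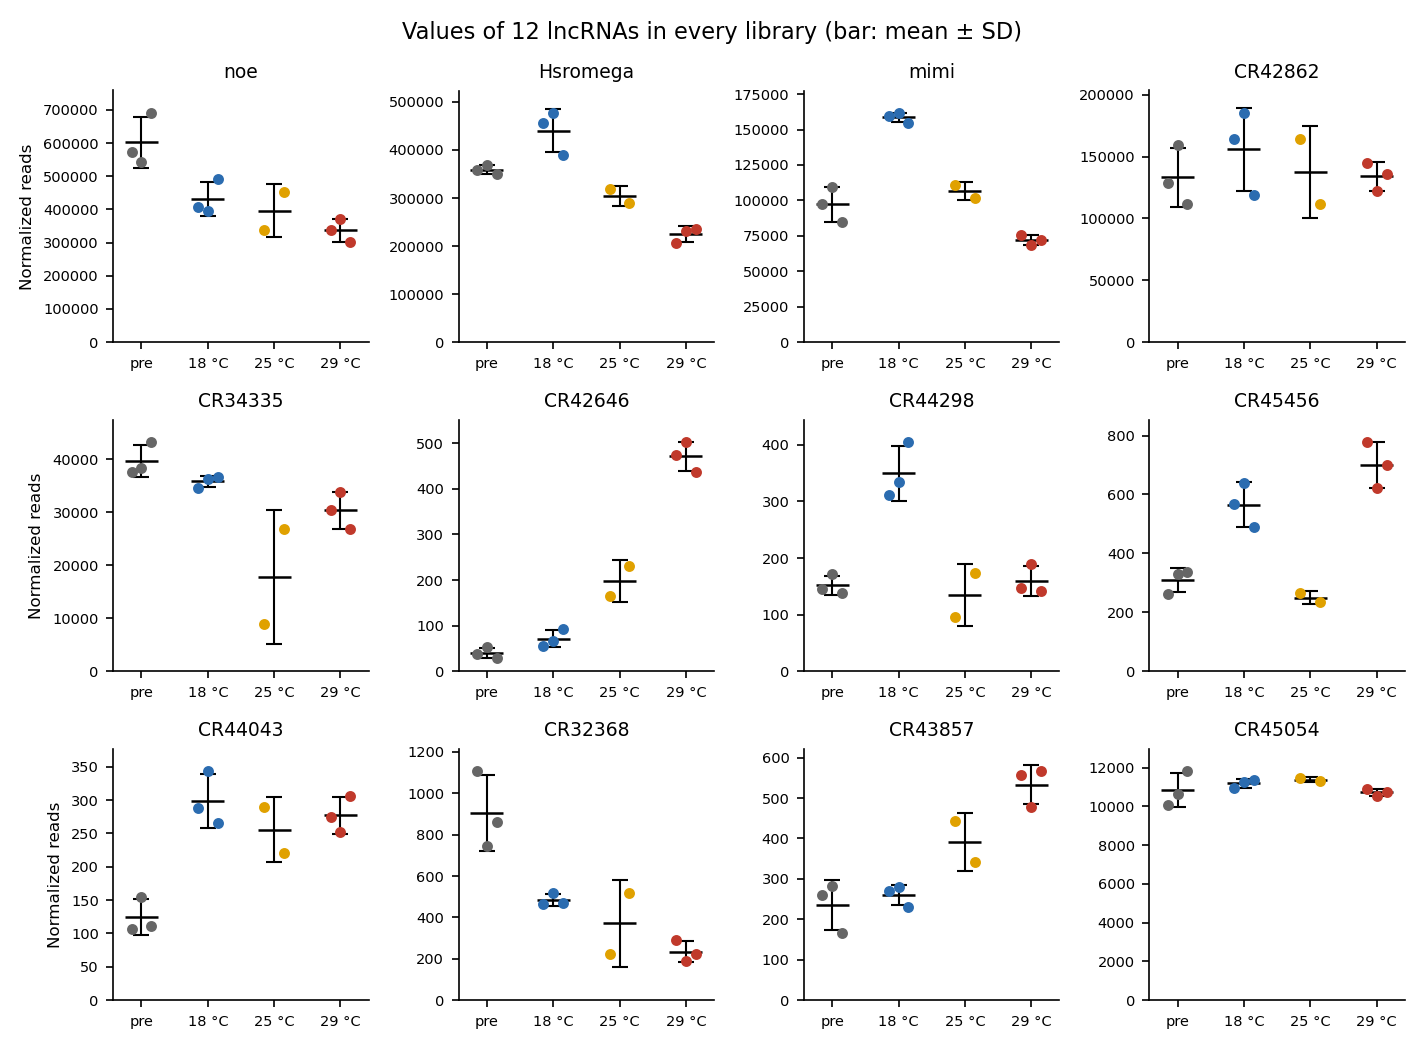
Normalized reads of 12 lncRNAs in every library (points) by group, with the group mean and SD (bars, n = 3, or n = 2 at 25 °C), each panel with its own axis from 0. Hsromega and mimi step down from 18 to 29 °C, CR42646 steps up from 40.0 before treatment to 471 at 29 °C, and CR45054 stays between 10077 and 11810.

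CR45115 (3L) and CR44662 (X) followed. CR45115 had 857, 865 and 612 normalized reads at 18 °C and 2079, 1760 and 2144 at 29 °C, a 2.56-fold rise (log2 1.37, SE 0.24, adjusted p = 0.00275). The 25 °C libraries, at 1837 and 1277, lay between the groups except that replicate 1 exceeded 29 °C replicate 2. CR44662 had 247, 260 and 216 at 18 °C, 425 and 292 at 25 °C and 651, 517 and 680 at 29 °C, again a 2.56-fold rise from 18 to 29 °C with separate groups (log2 1.34, SE 0.17, adjusted p = 0.000421).

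Several RNAs that rose lie within or beside genes of known function. CR44188 lies inside Hr38, which encodes a nuclear receptor of the NR4A family, on the opposite strand, and had 142, 169 and 158 normalized reads at 18 °C and 345, 240 and 365 at 29 °C (2.03-fold, log2 0.99, SE 0.19, adjusted p = 0.00531). CR44111 lies inside rdgA, the photoreceptor diacylglycerol kinase, on the opposite strand, and had 793, 779 and 628 at 18 °C and 1344, 1290 and 1318 at 29 °C (1.80-fold, log2 0.85, SE 0.12, adjusted p = 0.000852). Neither pair of groups overlapped. Irar, inside the insulin receptor gene InR on the opposite strand, had 217, 261 and 180 at 18 °C and 436, 343 and 354 at 29 °C (1.72-fold, log2 0.79, SE 0.18, adjusted p = 0.0119), a call that was lost without 29 °C replicate 1 (log2 0.68, adjusted p = 0.0577).

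CR46268, CR43857, CR45361, CR44417 and CR43411 completed the 10 steepest rises. CR46268 had 268, 283 and 180 normalized reads at 18 °C and 625, 468 and 615 at 29 °C (2.34-fold), and CR44417, inside Mapmodulin on the opposite strand, had 809, 984 and 654 and 1450, 1349 and 1388 (1.71-fold). CR43411, inside osp, had 238, 180 and 239 and 359, 470 and 440 (1.93-fold, adjusted p = 0.0217), and its call was lost without 29 °C replicate 2 (adjusted p = 0.0822), 29 °C replicate 3 (0.0762) or 18 °C replicate 1 (0.0508) or 2 (0.0787). Of the 23 calls in this comparison, 16 were kept whichever of the 11 libraries was left out, 13 of them higher and 3 lower at 29 °C.

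**Figure D3:**
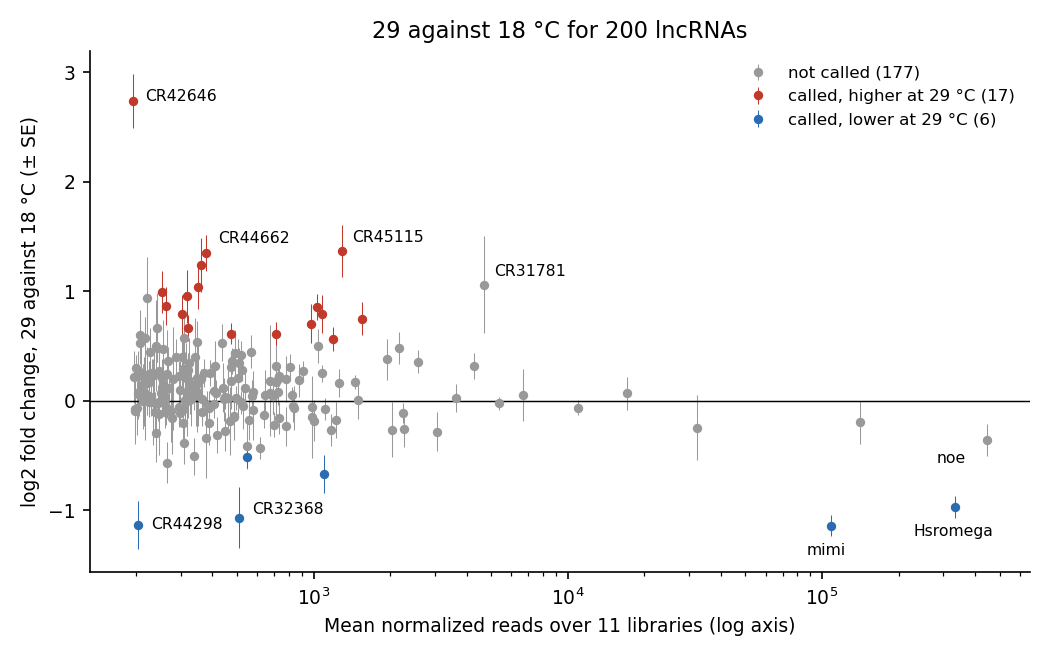
Log2 fold change of 29 against 18 °C (± SE) for the 200 lncRNAs against the mean normalized reads over 11 libraries (log axis), with called lncRNAs in red (17, higher at 29 °C) and blue (6, lower). The called rises have means of up to 1547 normalized reads, the falls of mimi (-1.14) and Hsromega (-0.97) stand at the right, and CR42646 is highest at 2.73.

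The comparison of 25 °C with pre-treatment asked what 10 days at the rearing temperature change. CR42646, CR44043 and CR31044 rose and CR32368, CR34335 and noe fell. These 6 were 3% of the members, 1.5% in each direction, against 5.43% of all genes, 2.77% higher and 2.66% lower, and 42 members (21%) had groups that did not overlap, against 30.4%. The median log2 fold change was 0.09, against -0.01 for all genes. With depth as a covariate 4 of the 6 were called and no others. The count rests on 25 °C replicate 1, as 1 member was called without it (CR42646) and 10 without 25 °C replicate 2.

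CR42646 rose 4.95-fold (log2 2.30, SE 0.27, adjusted p = 0.000912), from the values given above. CR44043, inside l(2)41Ab on the opposite strand, had 107, 155 and 112 normalized reads before treatment and 290 and 221 at 25 °C (2.05-fold, log2 1.04, SE 0.20, adjusted p = 0.0113), and was not called without 25 °C replicate 1 (log2 0.84, adjusted p = 0.111). CR31044, the host of mir-279 and mir-996, had 440, 522 and 405 before treatment and 771 and 727 at 25 °C (1.64-fold, log2 0.72, SE 0.13, adjusted p = 0.00862), likewise lost without replicate 1 (adjusted p = 0.0719). For all 3 every 25 °C library lay above every pre-treatment library.

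The falls were less firm. noe had 574222, 544193 and 689602 normalized reads before treatment and 339300 and 452145 at 25 °C, separate groups with a 1.52-fold lower mean (log2 -0.61, SE 0.17, adjusted p = 0.0482). That adjusted p rose to 0.335 without 25 °C replicate 1 and to between 0.0504 and 0.118 without any one of 8 other libraries, and the call was lost in 16 of 22 alternatives. CR34335, inside DIP-alpha on the same strand, had 37575, 38293 and 43224 before treatment and 8925 and 26828 at 25 °C (log2 -1.36, SE 0.34, adjusted p = 0.0337). Its 2 replicates at 25 °C differed 3.01-fold, and the log2 fold change was -0.56 (adjusted p = 0.0542) without 25 °C replicate 1 and -2.15 without replicate 2, and the call was lost on leaving out 9 of the 11 libraries in turn. CR32368 had 1106, 746 and 864 before treatment and 222 and 520 at 25 °C (log2 -1.39, SE 0.31, adjusted p = 0.022), and was not called without 25 °C replicate 1 (-0.78, adjusted p = 0.151) or pre-treatment replicate 1 (-1.24, adjusted p = 0.0752).

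Against the same pre-treatment libraries, 27 lncRNAs were higher and 7 lower at 29 °C, 13.5% and 3.5% of the members against 5.92% and 6.89% of all genes, and 17% in either direction against 12.8%. Groups did not overlap for 62 members (31%), against 41.2%, and the median log2 fold change was 0.16, against 0.00 for all genes. With depth as a covariate 13 were called, 7 higher and 6 lower, of which 10 were among the 34 (and 25 for 18 °C against pre-treatment, so the order of these counts turned), and the median log2 fold change of the members was -0.09. Without 29 °C replicate 1 or replicate 3 the count was 19 or 18, and 15 of the 34 calls were kept whichever library was left out.

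Of the most abundant RNAs, noe was 1.79-fold lower at 29 °C than before treatment (log2 -0.84, SE 0.15, adjusted p = 0.00298), with the 29 °C values listed above all below the pre-treatment ones. This call held with depth as a covariate, at a log2 fold change of -0.59 (adjusted p = 0.0119). CR32368 (3L, 317 bp from Tmem43) went from 1106, 746 and 864 normalized reads to 289, 191 and 222, a 3.87-fold fall (log2 -1.95, SE 0.28, adjusted p = 0.000861). CR46008, which shares exon with pros on the opposite strand, went from 398.7 ± 93.4 normalized reads (SD, n = 3) to 232 ± 30.0 (n = 3), groups that did not overlap (log2 -0.76, adjusted p = 0.017), and lost its call without 29 °C replicate 1 (adjusted p = 0.0555) or 3 (0.0757).

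Besides CR42646, the steepest rises at 29 °C over pre-treatment were CR43857, CR45456, CR44043 and CR45115. CR43857, the host of mir-275, had 259, 282 and 166 normalized reads before treatment and 557, 477 and 566 at 29 °C (2.27-fold, log2 1.21, SE 0.20, adjusted p = 0.00179). CR45115 had 907, 1246 and 644 before treatment, and its 29 °C values were all higher (2.14-fold, log2 1.14, SE 0.24, adjusted p = 0.00678). All 5 rises were called with depth as a covariate too, at log2 fold changes between 0.69 and 3.64.

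At 18 °C 9 lncRNAs were higher and 7 lower than before treatment, 4.5% and 3.5% of the members against 4.69% and 4.44% of all genes, 8% in either direction against 9.14%. Groups did not overlap for all 16 of these, which was so with a call for 9.06% of all genes, and for 60 members in all (30%), against 31.5%, and the median log2 fold change was 0.05, against -0.01. This count changed in kind with depth as a covariate, to 3 higher and 22 lower, with 6 of the 16 calls kept. It was 9 without 18 °C replicate 1, 10 without 18 °C replicate 2 and 10 without pre-treatment replicate 3.

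The 6 calls of 18 °C against pre-treatment that were kept whichever library was left out were all rises. They were mimi and CR44298, with the values above, CR44043, CR43314, CR31044 and CR45456. CR44043 had 287, 343 and 265 normalized reads at 18 °C (2.40-fold over pre-treatment, log2 1.27, SE 0.18, adjusted p = 0.00136). CR43314 had 687, 831 and 532 before treatment and 1283, 1403 and 1097 at 18 °C (1.84-fold, log2 0.90, SE 0.18, adjusted p = 0.00927). With depth as a covariate mimi, CR44298 and CR44043 were still called, and CR43314, CR31044 and CR45456 were not. The 5 largest of the 7 falls, CR43803, CR45361, CR45533, CR44111 and CR45809, had log2 fold changes between -0.63 and -0.52, and each of them lost the call without 18 °C replicate 3, among other libraries.

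CR44043 stood higher after every exposure than before it. Its 29 °C values were 274, 252 and 307 normalized reads, and all 8 libraries of the exposed groups lay above the 3 pre-treatment libraries. Between 29 and 18 °C the log2 difference was -0.10 (SE 0.18, adjusted p = 0.765). l(2)41Ab, the gene in which it lies, was also called higher in each of these comparisons, at log2 fold changes of 1.06, 1.47 and 0.99 for 25, 29 and 18 °C. CR31044 was likewise called higher at 25, 29 and 18 °C than before treatment. The 3 comparisons share their pre-treatment libraries and are not independent of each other.

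CR45456 separated 25 °C from both other temperatures. It had 262, 329 and 337 normalized reads before treatment, 567, 640 and 489 at 18 °C, 266 and 234 at 25 °C and 777, 621 and 701 at 29 °C. The 18 and 29 °C libraries were all above the other 5, and the 25 °C libraries lay within or just below the pre-treatment range. Its mean was 2.80-fold higher at 29 than at 25 °C (log2 1.48, SE 0.16, adjusted p = 0.00254) and 2.26-fold higher at 18 than at 25 °C (log2 1.17, SE 0.16, adjusted p = 0.00341). The gene 1023 bp away on the same strand, CG17005, moved in the same way, with log2 fold changes of 1.33 and 1.01 in those comparisons (adjusted p = 0.0061 and 0.00874).

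The comparisons with 25 °C otherwise gave few calls. Between 29 and 25 °C 1 lncRNA was higher (CR45456) and 1 lower (mimi), 1% of the members against 0.639% of all genes (0.245% higher and 0.394% lower), groups did not overlap for 42 members (21%), against 27.3%, and 12 members had an unadjusted p under 0.05 (6%), against 10.1%. edgeR on the recovered reads called 3 and DESeq2 5. mimi was lower by a log2 fold change of -0.57 (SE 0.11, adjusted p = 0.0424), and its call was lost on leaving out 9 of the 11 libraries in turn, at an adjusted p of up to 0.213 (without 25 °C replicate 1). Between 18 and 25 °C 5 were higher and 3 lower, 4% against 3.23% of all genes (1.55% higher and 1.68% lower), and groups did not overlap for 52 members (26%), against 31.7%. The higher ones included CR44298 (log2 1.42, SE 0.25, adjusted p = 0.01), CR32111 (0.63, adjusted p = 0.0102), mimi (0.58, adjusted p = 0.0142) and Hsromega (0.53, adjusted p = 0.0266), and the lower ones CR42646 (-1.47, adjusted p = 0.0136), CR44188 (-1.04, adjusted p = 0.0221) and CR46123 (-0.53, adjusted p = 0.0456). Without 18 °C replicate 1 only 2 were called and without 25 °C replicate 1 only 4, and a fit of the 18 and 25 °C libraries alone called none (0 by limma, with 30 members at an unadjusted p under 0.05 in the fit of all libraries, 9 called by edgeR and 14 by DESeq2). CR45456 alone of the 8 kept its call whichever library was left out. With depth as a covariate 26 were called, 6 higher and 20 lower.

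**Figure D4:**
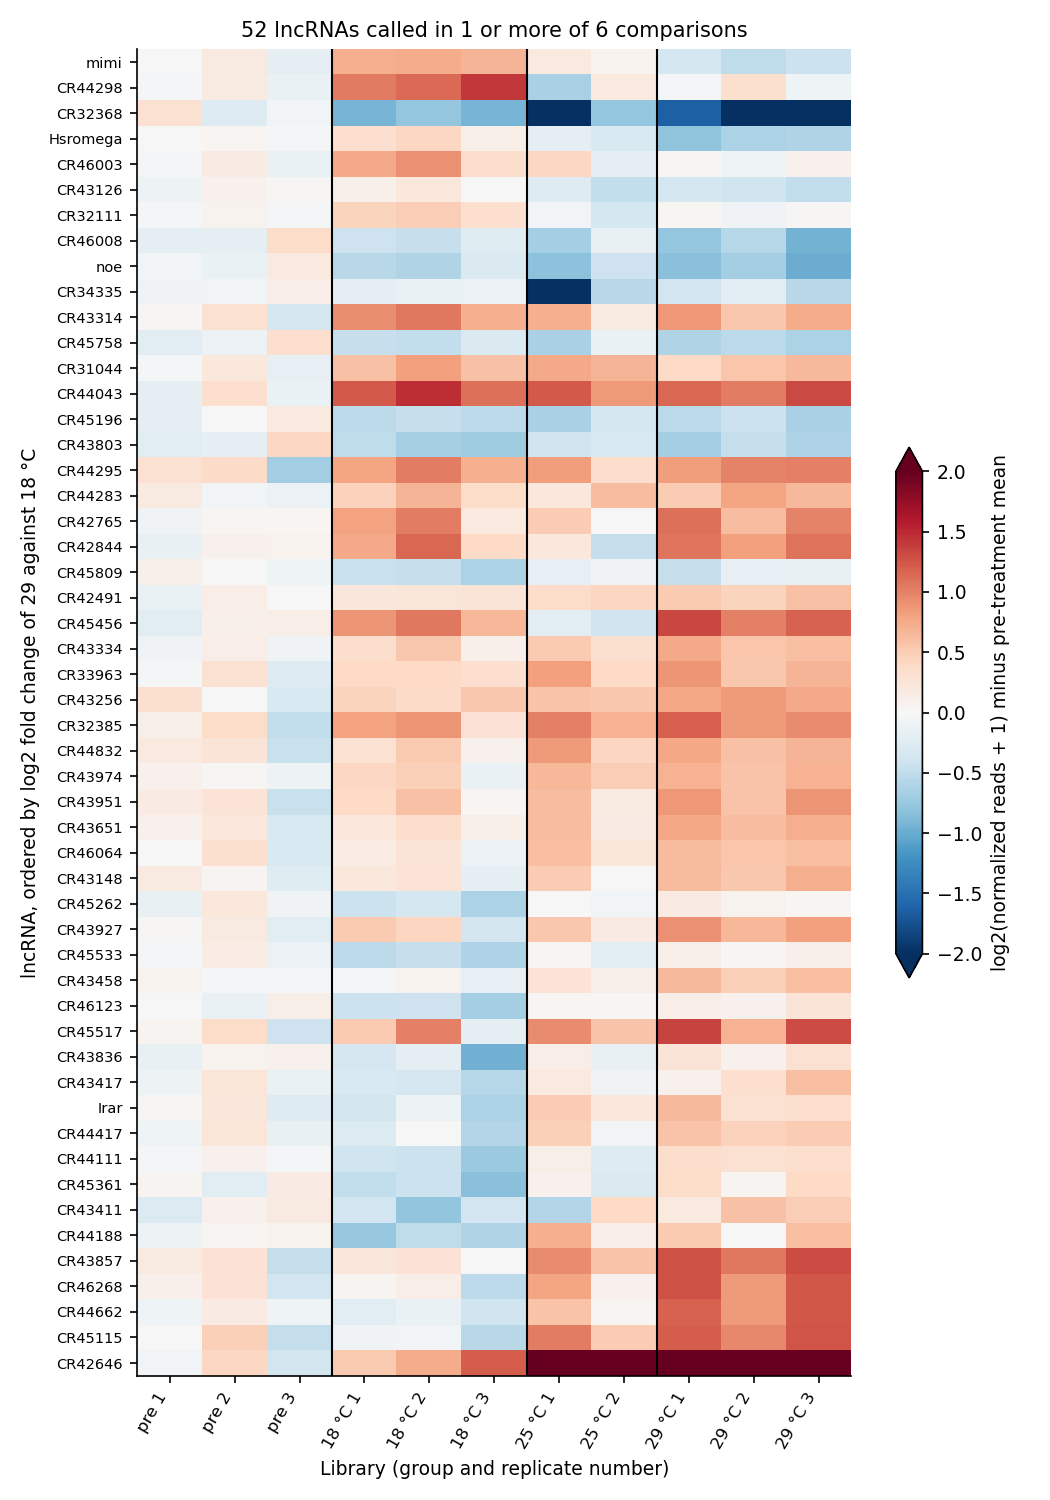
Log2(normalized reads + 1) of each library minus the pre-treatment mean for the 52 lncRNAs called in 1 or more of 6 comparisons, ordered by the log2 fold change of 29 against 18 °C (color scale cut at -2 and 2). Rows from mimi to CR32111 are lowest at 29 °C relative to 18 °C, CR44043 is red in all exposed groups, CR45456 is red at 18 and 29 °C, and CR42646 is past the end of the scale at 25 and 29 °C.

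Over the 6 comparisons 52 lncRNAs (26%) were called at least once, against 21.5% of all genes, and 148 were called in none. A stepwise order from 18 through 25 to 29 °C without overlap between neighbouring groups was found upward in 14 lncRNAs, 7% against 3.97% of all genes. The 14 were CR45919, CR45262, CR44111, CR42491, CR30121, CR43256, CR43458, CR44662, CR43857, CR46123, CR44161, CR45127, CR44851 and CR42646, of which CR42646 entered the list through its level at 29 °C. The 25 °C libraries lay below every 18 and 29 °C library for 5 members and above them for 3, 2.5% and 1.5%, against 2.64% and 2.95% of all genes.

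Hosts of microRNAs formed a group that was picked out after the values had been seen. In the annotation 21 of the 200 held 27 microRNA loci on their own strand, and their reads measure the long transcript, not the mature microRNA. Between 29 and 18 °C 3 of the 21 were higher and 1 lower, with a median log2 fold change of 0.17, where 5.36% of all genes were higher and 5.29% lower. Between 29 °C and pre-treatment 5 were higher and 1 lower, with a median of 0.24, where 5.92% of all genes were higher and 6.89% lower. The 1 lower in both was Hsromega, which holds mir-4951.

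The rises of hosts between 29 and 18 °C were CR43857, CR45361 and CR43836. CR43857 had 269, 280 and 231 normalized reads at 18 °C, against 557, 477 and 566 at 29 °C (2.05-fold, log2 1.03, SE 0.20, adjusted p = 0.00484). CR45361, the host of mir-1, a microRNA of muscle, had 193, 202 and 153 at 18 °C and 354, 282 and 362 at 29 °C (1.82-fold, log2 0.86, SE 0.17, adjusted p = 0.00647). The muscle marker sum, given above, was also higher at 29 than at 18 °C. Against pre-treatment that sum was lower at 29 °C, where CR45361 had a log2 fold change of 0.28 without a call. At 18 °C both were lower than before treatment, CR45361 at a log2 fold change of -0.59. The part of the muscle sum in the values of CR45361 was not tested. CR43836, the host of mir-31b, was called at a log2 fold change of 0.70 (adjusted p = 0.0211) and lost the call without 18 °C replicate 3 (0.47) or 29 °C replicate 1 (adjusted p = 0.0726) or 3 (0.0798).

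Higher at 29 °C than before treatment were the hosts of bantam (CR43334), mir-14 (CR43651), mir-bft (CR43314), mir-279 and mir-996 (CR31044) and mir-275 (CR43857). CR43334 had 3331.7 ± 279 normalized reads (SD, n = 3) before treatment and 5190.3 ± 405 at 29 °C (n = 3), which is 0.64 on the log2 scale (SE 0.12, adjusted p = 0.00355). CR43651 went from 1712 ± 299.9 (n = 3) to 2763 ± 144 (n = 3), or 0.70 on that scale (SE 0.15, adjusted p = 0.00679). With depth as a covariate CR43857 alone of these 5 remained called.

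Among the hosts called in no comparison, CR44909 and CR45347 varied widely within groups, with 314 ± 228 normalized reads at 25 °C (n = 2) and 698 ± 238 before treatment (n = 3), and CR45918 had a log2 difference of -0.57 between 29 and 18 °C. Others were even. CR46006, the host of mir-276a, ran from 4908 to 5704 normalized reads over all 11 libraries, and CR45919, the host of mir-124, a microRNA of neurons, from 1322 to 1625. let7C, the common precursor of let-7, mir-100 and mir-125, which is known for its rise at metamorphosis, had 853 ± 58.7 normalized reads before treatment (n = 3), then 1053 ± 146 after 18 °C (n = 3), 1054 ± 149 after 25 °C (n = 2) and 1006 ± 59.7 after 29 °C (n = 3), and was called in no comparison. CR43459, the host of mir-277 and mir-34, which lies 64 bp from Fmr1, was also called in none, with group means between 16351 and 17890.

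Most calls were not shared with the coding gene next to or around the lncRNA. A tested coding neighbour was found for 188 members. Between 29 and 18 °C 22 of these members and 15 of the neighbours (7.98%) were called, and both in 8 pairs, 5 in the same and 3 in opposite directions. One of the 5 was CR46268 with CG17490, and CG17490 passed the filter on low values only through 29 °C. Without that pair, left out after seeing the data, both were called in 7 pairs, 4 of them in the same direction. The fold changes of member and neighbour had r = 0.27 and rho = 0.17 over the 188 pairs, which share libraries and in part reads. Without CG17490 these were 0.20 and 0.15 (187 pairs). Where exons overlap, r was 0.75 and rho 0.61 on the same strand (14 pairs), 0.52 and 0.51 without CG17490, and r was 0.64 and rho 0.47 on opposite strands (13 pairs).

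Among the 8 pairs, CR44188 and Hr38 rose together, Hr38 by a log2 fold change of 0.89 (SE 0.19, adjusted p = 0.00951). Hr38 had 2491, 2623 and 1665 normalized reads at 18 °C and 4760, 3733 and 3937 at 29 °C. rdgA rose with CR44111 by 0.52 (SE 0.07, adjusted p = 0.000478), and both were also called lower at 18 °C than before treatment. CG33177, 112 bp from CR44662 and read from the opposite strand, rose by 1.14 (adjusted p = 0.00356).

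CG17490, which shares exon with CR46268 on one strand, had 3.43, 3.79 and 0 normalized reads at 18 °C and 39.9, 33.8 and 43.6 at 29 °C. As only its 29 °C level took it past the filter, these values are a description without a test. The opposite pairs were CR45115 with Prat2, CR45533 with CG11368 and CR46123 with Myo81F, in which the lncRNA rose and the coding gene fell by log2 fold changes of -0.56, -0.91 and -0.53. Irar rose while InR had a log2 fold change of 0.46 (SE 0.07, adjusted p = 0.00205), under the threshold of 0.5.

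**Figure D5:**
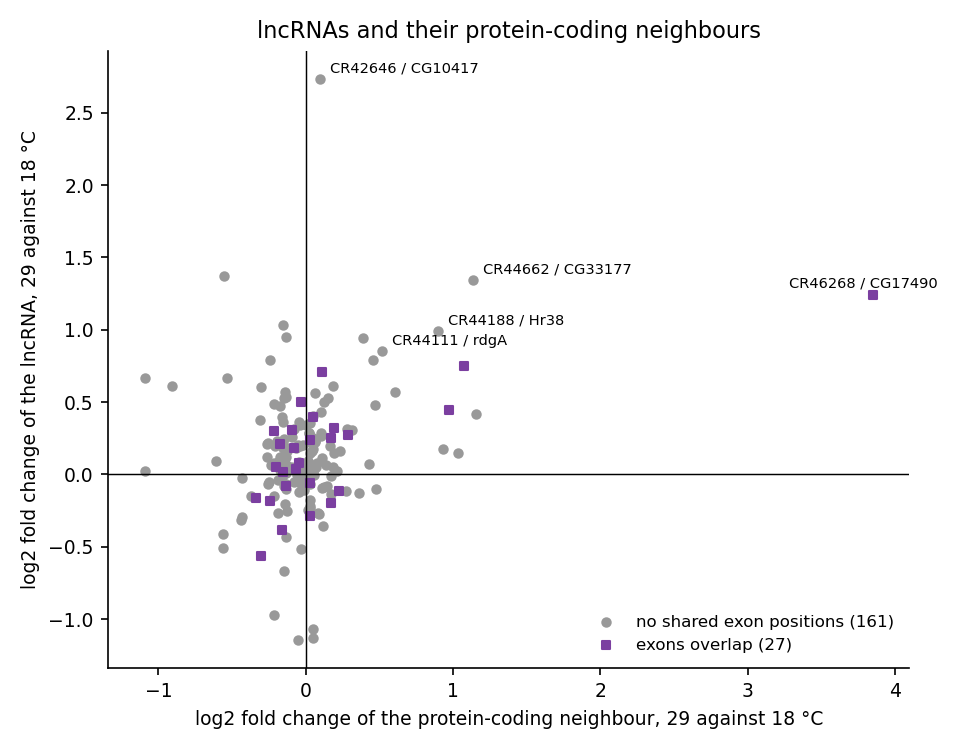
Log2 fold change (29 against 18 °C) of the lncRNA (vertical axis) against that of its coding neighbour (horizontal axis) for 188 pairs, with purple squares for the 27 pairs whose exons overlap. Most pairs lie near 0 on the horizontal axis, CR42646 is highest (2.73) at a value of 0.09 for CG10417, and CR46268 with CG17490, a neighbour with few reads, stands alone at the right.

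By position, the 60 lncRNAs that overlap no coding gene gave 7 rises and 5 falls between 29 and 18 °C, the 99 on the opposite strand of one gave 8 and 1, the 36 on the same strand gave 1 and 0, and the 4 on both gave 1 and 0. Over all genes 5.36% rose and 5.29% fell. By chromosome, X gave 4 rises among 19 members, 2L 6 among 45, 2R 3 rises and 1 fall among 34, 3L 1 and 2 among 47, 3R 3 and 3 among 50 and chromosome 4 none among 4. The median log2 fold changes ran from -0.13 on chromosome 4 to 0.22 on X.

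The steadiest of the 200 over all libraries were CR43242, CR45054, CR46006, CR45919 and CR44138. CR43242 (2L, 619 bp from Spf45) ran from 774 to 864 normalized reads, with an SD of 0.06 on the log2 scale over the 11 libraries, and CR45054 from 10077 to 11810 (SD 0.07). The median SD was 0.29 for the members, 0.25 for all genes tested and 0.20 for the 9001 genes at or above the lowest member mean. The ratio of the highest to the lowest library had a median of 1.87 and was 4 or more for 12 members.

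Some members spread widely within groups. CR31781 (2L, mean rank 10) had 6094, 3633 and 11246 normalized reads before treatment, 2054, 1636 and 3788 at 18 °C, 2504 and 5809 at 25 °C and 4622, 6039 and 4141 at 29 °C, and was called in no comparison, although the 29 °C libraries all lay above the 18 °C libraries (log2 1.06, SE 0.44, adjusted p = 0.135). It was highest in the shallowest library of each group, the reverse of most members. The 22 members with under 500 nt of exon, a class set after the values had been seen, were lower in deeper libraries in 11 cases (50%), against 17.6% of the 85 members from 500 to under 1000 nt and 18.2% of the 44 members of 2000 nt or more. Of all genes tested, 51.2% were higher in deeper libraries, so the short class was near that background. Over 199 members, exonic length and the slope on depth had rho = 0.04. Between the 25 °C replicates, CR40469 (214 nt) was 3.09-fold, CR34335 3.01-fold, CR45333 2.76-fold and CR32368 2.34-fold higher in replicate 2, whereas 161 of the 200 lncRNAs were higher in replicate 1. Higher in replicate 2 were 9 of the 22 members under 500 nt and 17 of the 85 from 500 to under 1000 nt. So were 8 of the 48 from 1000 to under 2000 nt and 5 of the 44 of 2000 nt or more. Short members were thus more often higher in replicate 2 than longer ones, though most of them were not. CR31781, of 2679 nt, was 2.32-fold higher there.

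The named lncRNA cherub, known from neural stem cell tumors of the fly brain, was called in no comparison. Its group means were 533 ± 109 normalized reads before treatment (n = 3), then 489 ± 71.2 after 18 °C (n = 3), 479.9 ± 59.1 after 25 °C (n = 2) and 444 ± 61.5 after 29 °C (n = 3), and the log2 difference between 29 and 18 °C was -0.14 (SE 0.17, adjusted p = 0.654).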

How the data were processed

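Total RNA of CantonS male heads, depleted of ribosomal RNA, was made into strand-specific libraries (11 in all, groups from the labels; part of the design text says brains). The deposited signal values are normalized reads: the authors aligned to dm6 with STAR, counted genes with featureCounts (strand setting and versions not given in the sources used here), counted circRNAs with find_circ2 and divided both by 1 DESeq2 size factor per library. Division by the smallest step of each library returned whole reads in 100% of cases (tolerance 0.01), and a read was worth 0.474 to 1.99 normalized reads. A floor of 3 reads was 1.42 to 5.98 normalized reads, and covers counting error alone. No member had fewer than 15 reads in a library.

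After adding 1 and taking log2, limma 3.58.1 (R 4.3.3, moderated with a mean trend) fitted all 11 libraries at once over those linear genes whose mean reached 10, with Benjamini-Hochberg adjustment over all 12676. A call needed an adjusted p below 0.05 together with a log2 fold change beyond 0.5 in either direction. Libraries are pools of males, and p-values measure the spread between them. Sums and levels were not tested. Alternatives were pseudocounts of 0.5 and 10, filters of none and a mean of 50, TMM or equal-sum scaling, a depth covariate, a replicate block, fits of the compared groups, edgeR 4.0.16 and DESeq2 1.42.0 on the recovered reads, other rankings and sizes of the list, and each library left out. edgeR called 23 of the 200 between 29 and 18 °C and DESeq2 28. The limma step for 29 against 18 °C was also run on simulated reads, with levels and spread taken from these data. The simulated levels did not move with depth, so that run cannot show what depth does to the calls here.

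Annotation came from Ensembl release 115 (dm6 coordinates), which matched 199 of the 200 (all but CR45557). The neighbour is the coding gene with most overlap, genes with overlapping exons being taken first, or else the nearest. Greek letters were repaired in 350 symbols. No row named as a small nucleolar RNA host carried the lncRNA prefix. Named were the 10 most abundant members, those with names other than CR numbers, the largest called rises and falls (10 each for the first 2 comparisons reported, 5 for the others) without overlap, the 3 on either side of the rank limit, the 5 surest calls of 29 against 18 °C and the 5 steadiest, and the neighbours of these. The members and lists were chosen with earlier results of these data known. The microRNA hosts, the length classes and others outside that rule were chosen after their values were seen. Sequences were not used here.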

Additional observations from a re-analysis of the deposited data

How the results depend on the processing

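Of 89 calls of single lncRNAs over the 6 comparisons, 31 were called under each of 22 alternatives and none reversed. Depth moved most counts of called lncRNAs: with it as a covariate they were 41 for 29 against 18 °C, 13 for 29 °C and 25 for 18 °C against pre-treatment, 6 for 29 against 25 °C and 26 for 18 against 25 °C, and 51 of the 89 calls were kept. The size or ranking of the list also moved them. For 29 against 18 °C the count was 15 when ranked per kilobase, 14 for 100 lncRNAs and 40 for 400. For 25 °C against pre-treatment it was 3 per kilobase and 13 for 400, for 29 °C against pre-treatment 20 and 57 for 100 and 400, for 18 °C against pre-treatment 8 and 31, and for 18 against 25 °C 4 for 100. DESeq2 gave 14 for 25 °C against pre-treatment, 5 for 29 against 25 °C and 14 for 18 against 25 °C, and edgeR 10 for 18 °C against pre-treatment. A fit of the compared groups alone gave 1 for 25 °C against pre-treatment, 1 for 29 against 25 °C and 0 for 18 against 25 °C, where fewer libraries set the spread. Scaling to equal sums gave 1 for 29 against 25 °C. Keeping the lncRNAs in the top 200 of every group, an alternative chosen after seeing the data, gave 9 for 18 °C against pre-treatment and 5 for 18 against 25 °C. The causes of the other shifts were not tested. Leaving out each library gave 18 to 27 for 29 against 18 °C, 1 to 10 for 25 °C, 18 to 38 for 29 °C and 9 to 21 for 18 °C against pre-treatment, 1 to 3 for 29 against 25 °C and 2 to 11 for 18 against 25 °C.

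Replicate numbers were not taken to pair the samples, since correlations of same-numbered libraries' deviations ran from -0.47 to 0.47. They were 0.05, -0.30 and -0.25 between 29 and 18 °C, -0.06, 0.47 and 0.43 between 18 °C and pre-treatment, and 0.20 and 0.38 between 29 and 25 °C, and no pair of groups with 3 shared numbers had all above 0.1. With a replicate block the counts were 24, 4, 34, 13, 1 and 6 in the order of comparisons above. Only the 25 °C group had 2 libraries, so its calls rest on the spread borrowed from the other groups.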
